A study of Homo sapiens with 10 samples.

Results

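HER2 was mapped on the chromatin of SKBR3 cells, an established human breast cancer line in which ERBB2, the gene for HER2, is amplified. One library was made from cells given vehicle (water) and 1 from cells given epidermal growth factor (EGF) at 100 ng/ml, both for 3 hours and without removal of serum, so that both groups had the growth factors of the medium. Bound DNA was recovered with an antibody to HER2 (1 product, several lots) and trimmed by exonuclease before sequencing (ChIP-exo). The lists hold 2596 peaks after vehicle and 2520 after EGF, 5116 of the 43001 HER2 peaks of the 4 lists in the series, the other lists being from BT474, a second line with amplified ERBB2. Each peak was placed in a class by its position alone. An EGF peak with no vehicle peak sharing at least 1 bp was called gained (2185 sites), an EGF peak that shared at least 1 bp with a vehicle peak was called kept (335 sites, matching 338 vehicle peaks), and a vehicle peak with no EGF partner was called lost (2258 sites). These names describe the 2 lists. There was 1 library per condition, so no value below tests EGF against vehicle, and a site gained or lost between 2 libraries cannot be told apart from a site found in only 1 of 2 repeats of the same condition. SKBR3 maps of histone H3 lysine 4 monomethylation (H3K4me1), a mark of enhancers, had 2 replicates. The labels call those cells asynchronous and the study's text calls them EGF-treated.

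HER2 is a receptor tyrosine kinase of the ERBB family with no ligand of its own. EGF binds EGFR, which pairs with HER2 at the cell surface and signals through the RAS-MAPK and PI3K-AKT pathways to transcription factors such as AP-1, while receptor kinases also activate STAT proteins. A part of the HER2 in a cell is found in the nucleus. The question of the comparison was which chromatin sites held HER2 with and without EGF. Shares are given with 95% Wilson intervals, which cover counting error only, since neighbouring peaks of 1 library are not replicates. Without read counts in the lists, the HER2 sequencing depth could not be given.

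The following stretches of 100 bases around peak midpoints show the words counted below. They were picked by score and do not stand for the shares of their classes: the leading gained site holds GAGAGAGA, which was less frequent at gained than at lost sites, and neither lost site shown holds it. They are from the plus strand of GRCh37. Capitals mark the core CGTNTGC (N is any base) or its reverse complement, and the purine words GAGAGAGA and GAGACAGA on either strand. The first 4 sites had some of the highest scores: the second of the kept class, the first and second of the gained class and the second of the lost class, whose first touched an exon and is not shown.
Kept site, near MIR607, chr10:98561310-98561409: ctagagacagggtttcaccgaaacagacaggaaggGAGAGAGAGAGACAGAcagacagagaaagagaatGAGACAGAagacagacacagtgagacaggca
Gained site, near NAA11, chr4:80274365-80274464: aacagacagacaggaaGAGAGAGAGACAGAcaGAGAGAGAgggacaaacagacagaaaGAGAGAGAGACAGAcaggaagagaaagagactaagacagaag
Gained site, in TMEM178B, chr7:140783168-140783267: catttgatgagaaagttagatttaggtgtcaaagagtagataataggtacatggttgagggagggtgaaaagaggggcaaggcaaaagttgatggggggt
Lost site, near ZCCHC24, chr10:81138277-81138376: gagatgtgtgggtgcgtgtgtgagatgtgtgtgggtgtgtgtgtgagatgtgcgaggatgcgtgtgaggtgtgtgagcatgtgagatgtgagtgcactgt
The site near MIR607 and the gained site near NAA11 were tracts of GA and GACA repeats. The lost site near ZCCHC24 was a GT-rich repeat. The next 4 held the core and had high scores among such sites: 1 of the kept, 2 of the gained and 1 of the lost class.
Kept site, near MIR4686, chr11:2217802-2217901: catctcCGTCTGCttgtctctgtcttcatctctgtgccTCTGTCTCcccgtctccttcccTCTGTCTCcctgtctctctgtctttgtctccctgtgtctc
Gained site, in GCGR, chr17:79767248-79767347: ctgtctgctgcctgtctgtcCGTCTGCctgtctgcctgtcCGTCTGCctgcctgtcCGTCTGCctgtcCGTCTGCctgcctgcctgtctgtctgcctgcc
Gained site, in OPCML, chr11:133290281-133290380: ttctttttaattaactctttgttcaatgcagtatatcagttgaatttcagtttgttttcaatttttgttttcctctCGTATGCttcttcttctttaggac
Lost site, in ADK, chr10:76220530-76220629: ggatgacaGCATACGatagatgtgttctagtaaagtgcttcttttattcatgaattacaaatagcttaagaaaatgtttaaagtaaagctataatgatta
The gained site in GCGR, the glucagon receptor gene, held the core several times within a CTGT-rich repeat. In OPCML the core stood once, as CGTATGC. The lost site in ADK held it as GCATACG followed by A.

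Kept sites are read from the EGF peak unless the vehicle peak is named. The core was found within 50 bp of the midpoint at 247 of 2185 gained sites (11.3%, interval 10.0 to 12.7%), 55 of 335 kept sites (16.4%, 12.8 to 20.8%, and 9.47% from the vehicle midpoint) and 58 of 2258 lost sites (2.57%, 1.99 to 3.306%). The intervals of gained and lost sites did not overlap. Windows of the same length placed 1 kb to either side held the core at 1.396% for gained, 0.746% for kept and 0.797% for lost sites, and 0.934% of 28075668 windows of the genome held it. The lost sites therefore also exceeded their flanks. The form with A at the open position made up most of the gained and kept sites with the core, at 6.50% and 11.04% of the class, against 1.11% of lost sites. Its extension GCATACGA was present at 4.62% of gained, 8.96% of kept and 0.664% of lost sites, and at 0.0241% of genome windows. GCATACGA is also a stretch of the Illumina P7 adapter, which is ligated during ChIP-exo. The part of the adapter in these shares was not tested here.

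GAGAGAGA ordered the classes differently from the core, and GAGACAGA was most frequent at kept sites. GAGAGAGA, on either strand, stood at 22.4% of lost sites (interval 20.7 to 24.1%), 22.1% of kept sites (18.0 to 26.8%) and 11.03% of gained sites (9.78 to 12.4%). The flanks held it at 1.55%, 1.49% and 1.69%, and genome windows at 1.20%. GAGACAGA stood at 24.5% of kept (20.2 to 29.4%), 10.98% of gained (9.74 to 12.4%) and 9.48% of lost sites (8.34 to 10.8%). Genome windows held it at 1.46%. The intervals of gained and lost sites overlapped, and over the whole peaks their shares were 15.9% and 16.6%. Unbroken runs of at least 15 purines or 15 pyrimidines were present at 27.1% of lost, 25.1% of kept and 17.2% of gained sites, and at 5.67 to 7.12% of flanks. So the lost sites were rich in GA repeats and poor in the core, the kept sites were rich in both and the gained sites held each of the 3 words at about the same share. Only 25 gained, 5 kept and 4 lost sites held the core together with a purine word, and 73.1%, 54.9% and 72.6% of the classes held neither. These 2 purine words were chosen after the sequences had been seen.

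Sites for the transcription factors that EGF signalling is known to reach were not more frequent at the peaks than beside them. The AP-1 site TGANTCA, bound by FOS and JUN dimers, stood at 2.06% of gained (interval 1.54 to 2.74%), 2.39% of kept and 2.17% of lost sites, and at 2.91%, 3.58% and 3.19% of their flanks. The STAT site TTCNNNGAA stood at 2.33%, 2.39% and 2.13%, against 3.18%, 3.43% and 3.21% of flanks. A word without a match in this window says nothing about the factor.

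**Figure D1:**
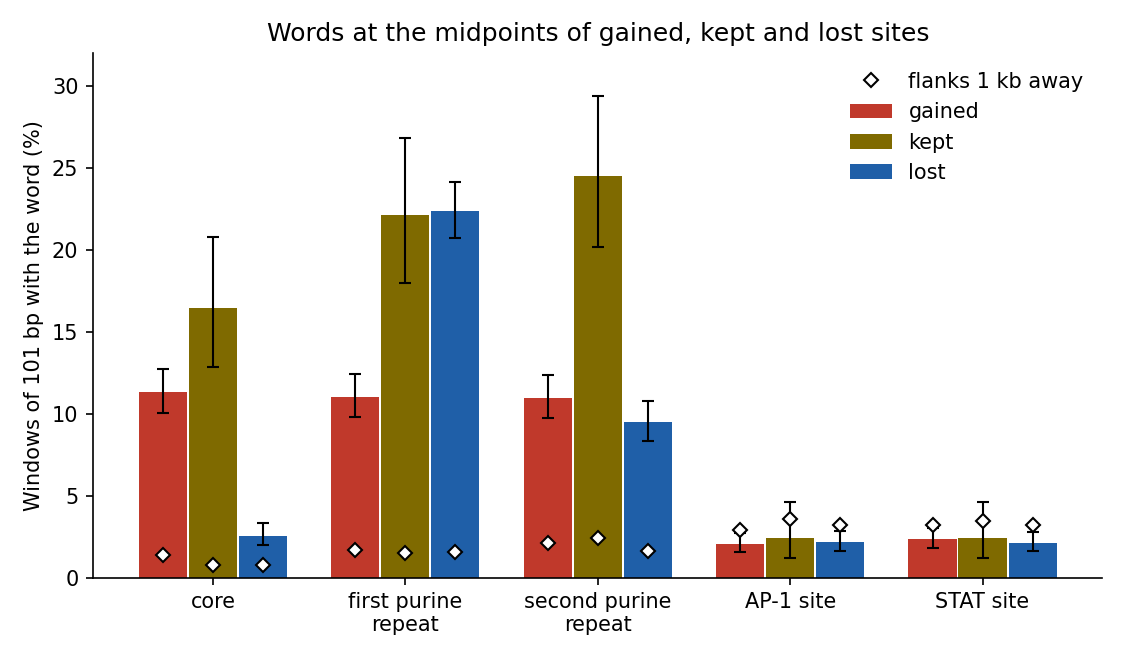
Share of gained, kept and lost HER2 sites (bars, %, with 95% Wilson intervals) that hold, within 50 bp of the midpoint, the core, the first purine repeat (GA) or the second purine repeat (GACA), an AP-1 site or a STAT site, with white diamonds for windows 1 kb to either side. With kept sites read from the EGF midpoint the core is highest there (16.4%, but 9.47% from the vehicle midpoint, below the 11.3% of gained sites) and it is lowest at lost sites (2.57%), the first purine repeat is lowest at gained sites (11.03%), and the last 2 words lie below their diamonds in every class.

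The kept sites allowed the same places to be read from both libraries. Around the midpoint of the EGF peak 16.4% held the core within 50 bp, and around the midpoint of the vehicle peak 9.47% did (interval 6.79 to 13.1%), and these intervals overlapped slightly. Within 200 bp the 2 readings came together, at 23.6% and 23.7%, as they did over the whole peaks, at 22.1% and 22.2%. In the central 51 bp the core was present at 8.36% of the EGF peaks (5.85 to 11.8%) and 3.25% of the vehicle peaks (1.83 to 5.73%). Thus the core lay at the centre of EGF peaks more often than at the centre of vehicle peaks over the same kept places. GAGAGAGA was near the centre in both, at 22.1% and 25.1% within 50 bp. Reading the whole peak narrowed the contrast between gained and lost sites, to 14.97% (13.5 to 16.5%) and 6.38% (5.44 to 7.46%) for the core, and the intervals still did not overlap. For GAGAGAGA the whole peaks gave 16.7% of gained and 34.6% of lost sites.

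**Figure D2:**
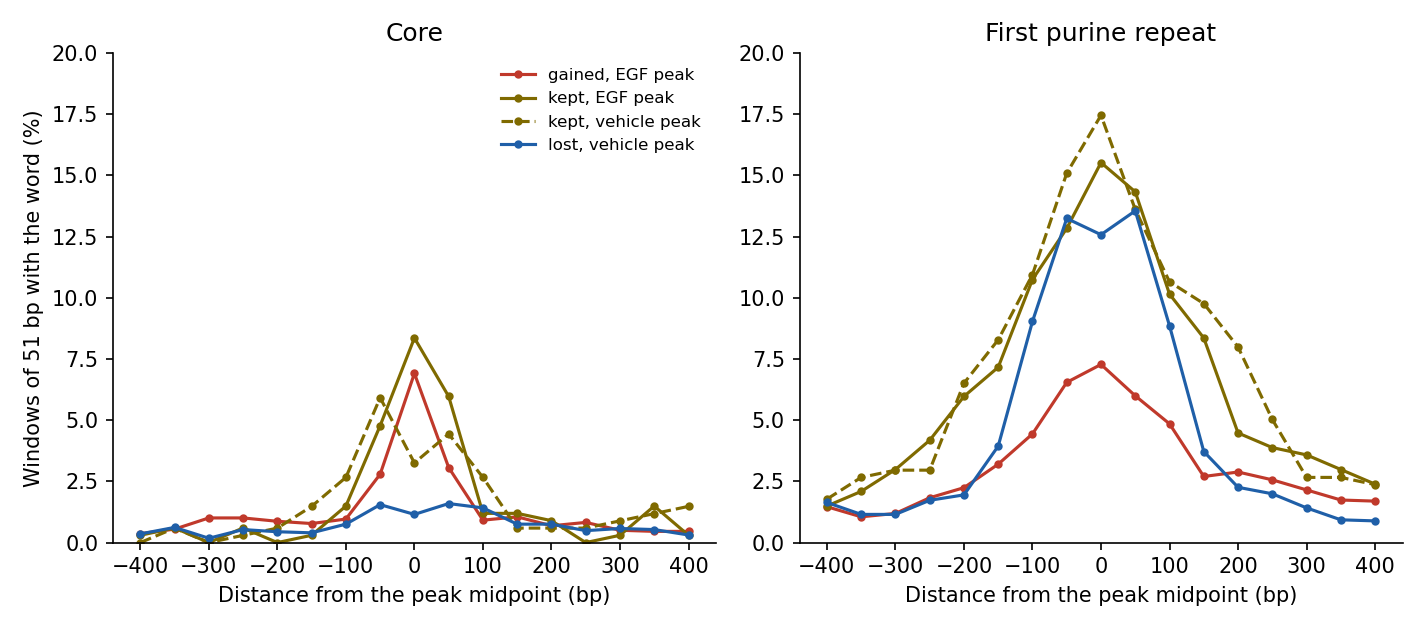
Share of sites (%) with the core (left) or the first purine repeat (right) in windows of 51 bp, by distance of the window from the peak midpoint in bp, for gained sites, kept sites read from the EGF peak (solid) or the vehicle peak (dashed) and lost sites. The core is highest at the midpoint of gained (6.91%) and kept EGF peaks (8.36%). At the midpoint of kept vehicle peaks it is at 3.25% (1.83 to 5.73%), an interval that overlaps those of both adjacent windows. The repeat is highest within 50 bp of the midpoint in every set of peaks.

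Kept sites were few and were concentrated among the highest scores. The share of vehicle peaks kept was 13.0% (interval 11.8 to 14.4%) and that of EGF peaks 13.3% (12.0 to 14.7%). Few pairs just missed: 1.33% of gained sites lay within 1 kb of a vehicle peak and 1.24% of lost sites within 1 kb of an EGF peak. In the top 10% of the EGF list by score 29.8% of peaks were kept (24.5 to 35.7%), against 7.94% (5.20 to 11.9%) in the bottom 10%. In the vehicle list 25.4% (20.5 to 31.0%) of the top 10% and 8.88% (5.99 to 13.0%) of the bottom 10% were kept. Among the 100 highest peaks 36 of the vehicle list and 35 of the EGF list had a partner, yet only 14 vehicle peaks of that rank overlapped an EGF peak of that rank. The 338 pairs had a median distance between midpoints of 38.5 bp, and their scores were weakly related, with Spearman's rho of 0.199 across pairs, a description of pairs that share their libraries. The score is the authors' value on an unstated scale and was used only to rank peaks within a list. The EGF list also held 15 peaks narrower than 150 bp, of which the vehicle list had 0, and 4 pairs of neighbours with 1 score between them.

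**Figure D3:**
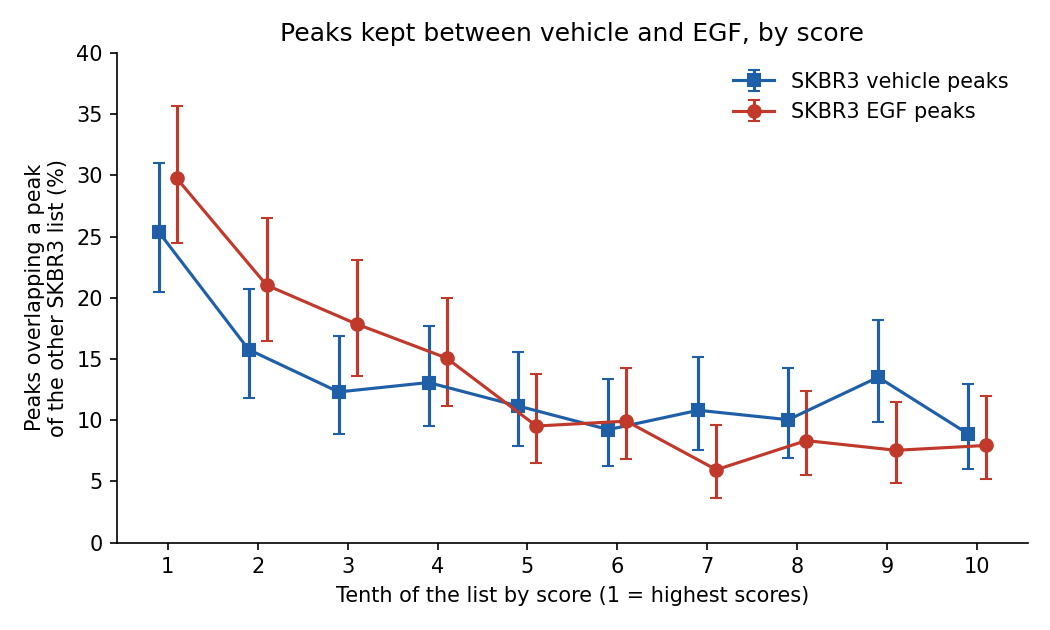
Share of SKBR3 peaks (%, with 95% Wilson intervals) that overlap a peak of the other SKBR3 list, in 10 equal parts of each list in order of score, for vehicle (squares) and EGF (circles). Both lines start high (25.4% and 29.8%) and lie between 5.95% and 13.5% from part 5 on.

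Most of the leading sites lay in introns or outside genes. The kept site with the highest score (58931) was in an intron of MAN1A1, which encodes a Golgi mannosidase, 112 kb from the nearest start site of that gene. The next kept sites were at chr10:98561168-98561551, which lay 27.1 kb from MIR607, and at chr2:62957724-62958058, in an intron of EHBP1, a gene for an endocytic adaptor. The remaining kept sites of the 5 highest lay beside a pseudogene on chromosome 21 and at chr8:82754504-82754801, the latter 0.116 kb from a start site of SNX16, which encodes a sorting nexin of endosomes. All 5 were also listed in both BT474 conditions and none lay in an H3K4me1 island.

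Among gained sites the highest score belonged to chr4:80274101-80274728 (score 14420), 27.2 kb from NAA11, a gene for an N-terminal acetyltransferase, with a further gained site beside it at chr4:80273493-80274049. The second, chr7:140783118-140783318 (score 5831), was in an intron of TMEM178B, 9.03 kb from a start site. The next sites, a pair on chromosome 1 in the PMF1-BGLAP readthrough gene, were 12 bp and 53 bp wide and shared the score 5149.5. The first of the lost sites was chr1:156107511-156107714 (score 1597), in an untranslated or non-coding exon of LMNA, the gene for lamins A and C, 0.121 kb from one of its annotated start sites. The next lay 3.75 and 4.86 kb from ZCCHC24, followed by a site in an intron of GRM8, which encodes a glutamate receptor, and by one in the long non-coding RNA gene LINC-PINT. None of these 5 was listed in BT474 vehicle cells, and 3 were listed in BT474 cells after EGF.

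Few sites of any class stood at start sites. A transcript start of a protein-coding gene lay within 1 kb of the midpoint at 127 gained (5.81%, interval 4.91 to 6.87%), 20 kept (5.97%, 3.90 to 9.04%) and 93 lost sites (4.12%, 3.37 to 5.02%). The intervals of gained and lost sites overlapped narrowly. With start sites of genes of every type the shares were 9.38% of gained (8.23 to 10.7%) and 6.86% of lost sites (5.89 to 7.98%), and these intervals did not overlap. The median distance to a protein-coding start was 38.4 kb for gained, 34.6 kb for kept and 44.1 kb for lost sites.

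The highest scores at start sites were at genes of unlike function. A start site here is that of any annotated transcript, so a site can lie far inside its gene. The site at LMNA, chr1:156107511-156107714, for example, was in a gene spanning chr1:156052364-156109872. The gained sites were at GCGR (score 505.5), OCA2, a gene of melanosomes (467), SRP68, a part of the signal recognition particle (436), SNRPN, from an imprinted locus (418), and AMY2B, a pancreatic amylase (408.5). All 5 were also listed in both BT474 conditions. The kept sites were at SNX16 (2214), SMCO4 (455), NECTIN2, a gene for an adhesion receptor (338), and TSN, which encodes translin (324). The lost sites were at LMNA (1597), MC3R, a melanocortin receptor gene (98), TPRG1 (78.5), FCMR, an Fc receptor gene for immunoglobulin M (72), and WDR43 (69), a ribosome biogenesis gene. Of these 5 lost sites, those at TPRG1 and WDR43 were in the BT474 EGF list and none was in the BT474 vehicle list.

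By gene class the 3 sets were alike. Sites inside protein-coding genes made up 46.5% of gained (44.4 to 48.5%), 47.2% of kept and 45.1% of lost sites (43.0 to 47.1%). A further 14.1%, 14.9% and 16.2% lay in long non-coding RNA genes, and 38.6%, 37.6% and 38.0% lay outside every gene. Coding exons held 29 gained (1.33%, 0.926 to 1.90%), 6 kept (1.79%) and 13 lost sites (0.576%, 0.337 to 0.983%).

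Of 20162 protein-coding genes, 1217 (6.04%) had a gained site in the body or within 10 kb, 185 (0.918%) a kept site and 1137 (5.64%) a lost site. Gained and lost sites shared 244 of these genes, 20.05% of the former and 21.5% of the latter. Long genes were hit most: the genes with a site in the body had a median length of 138 kb for gained, 180 kb for kept and 163 kb for lost sites, against 27.2 kb for all protein-coding genes. Among the 1503 genes of 200 kb or more, 24.6% had a gained and 25.8% a lost site. Per Mb of gene body gained sites numbered 0.777 in genes of 200 kb or more, 0.694 in genes of 50 to 200 kb, 0.940 in genes of 10 to 50 kb and 1.41 in genes under 10 kb. Lost sites numbered 0.898, 0.690, 0.680 and 1.01 per Mb in the same order.

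A few genes held many sites. CDH4, the gene for R-cadherin (chr20:59827317-60515673), had 10 gained, 2 kept and 3 lost sites, or 21.8 per Mb. Of its gained sites 8 were listed in BT474 after EGF and 3 in BT474 vehicle, while 0 of its lost sites were in either list. The gained sites of CDH4 included chr20:60432944-60433633, with a score of 1180. CTNNA3, which encodes an alpha catenin of cell junctions, had 6 gained and 3 lost sites over 1851 kb. OPCML and RBFOX1, genes for a neural adhesion protein and a splicing factor, had 5 gained and 2 lost sites each, and PTPRN2, a receptor-type phosphatase gene, had 5 gained and 3 lost sites. On the lost side GRM7, a metabotropic glutamate receptor gene (chr3:6811688-7783220), led with 9 lost against 2 gained sites. LRMDA had 6 lost, 4 gained and 1 kept, MACROD2, an ADP-ribose hydrolase gene, had 6 lost, 3 gained and 1 kept, ENSG00000285218 had 6 lost and AUTS2, a neurodevelopment gene, had 5 lost. Of the 9 lost sites in GRM7, 2 were listed in BT474 after EGF and 0 in BT474 vehicle. None of these sites in CDH4, CTNNA3, GRM7, LRMDA or MACROD2 lay in an SKBR3 H3K4me1 island or within 1 kb of a start site of its gene. Among genes with kept sites, CDH4, SPATA16, GPHN (the synaptic scaffold gephyrin), SLC35F4 and RBM25 (a splicing gene) had 2 each.

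Genes of EGF signalling had gained and lost sites. The lists held 172 genes of the receptors, ligands, RAS-MAPK, PI3K-AKT-mTOR, feedback, protein kinase C and JAK-STAT groups. Of these, 20 (11.6%) had a gained site within 10 kb and 12 (6.98%) a lost site, beside 6.04% and 5.64% of all protein-coding genes. None had a kept site, which 0.918% of all protein-coding genes had, so 0 of 172 is near that share. By length, 6 of the 7 groups had a median gene length above the 27.2 kb of all. Of the 23 gained sites, 22 were listed in BT474 after EGF and 19 in BT474 vehicle. Of the 15 lost sites, 8 were listed in BT474 after EGF and 0 in BT474 vehicle. The gained sites had a median score of 128, beside 129.25 for the whole EGF list. The lost sites had a median of 24.5, beside 35 for the whole vehicle list. None of the gained or lost sites held the core or a purine word. None of the gained but 3 of the lost sites lay within 1 kb of a start site of the gene. An H3K4me1 island of either replicate held 7 of the gained and 4 of the lost sites.

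EGFR, the receptor for EGF, had gained sites in introns at chr7:55129942-55130145 (score 85.5) and chr7:55163361-55163706 (score 270), both in islands of both H3K4me1 replicates. ERBB3, a partner of HER2 with weak kinase activity, had a gained site at chr12:56495537-56495787 in a coding exon (score 368). ERBB2 and ERBB4 had no listed site. The study's methods removed reads in regions of high input signal, and whether the amplified ERBB2 locus was among them was not tested. Of the 11 ligand genes only NRG2, a neuregulin, had a site, an intronic gained one (128). That is 9.09% of the group, beside 6.04% of all protein-coding genes.

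In the RAS-MAPK group 7 of 61 genes (11.5%) had a gained and 3 (4.92%) a lost site. Gained sites were in RASGRP3 and 8.92 kb from RASGRF1, genes for exchange factors of RAS (scores 61 and 74), and in the kinase genes MAP3K13 (249.5), MAPK8 (84) and MAPK10 (119.5), and RPS6KA2 (28) and RPS6KA5 (380), kinases downstream of ERK or p38. Lost sites were in BRAF, the kinase that RAS activates (19.5), 2.52 kb from MAPK13, a p38 kinase gene (21.5), and in RPS6KA2, which had 2 (24 and 42.5). The group had 0.824 gained and 0.412 lost sites per Mb of gene body, against 0.782 and 0.789 over all protein-coding genes. Scores of gained and lost sites come from different lists and are not compared. In the vehicle list the median score was 35 and the lowest 10% ran from 7 to 21.5. The lost sites at BRAF (rank 2423 of 2596) and MAPK13 (rank 2336) were among its lowest scores. In the EGF list the median was 129.25 and the lowest 10% ran from 4 to 36.5, which took in the gained site of RPS6KA2.

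Of 32 genes of the PI3K-AKT-mTOR group, PIK3C2G (score 288) and RPTOR, the partner of mTOR (15), had gained sites, and 1 gene of the group had a lost site. The site in RPTOR was in the lowest 10% of the EGF list by score. Among 29 feedback inhibitors the gained sites were 5.85 kb from DUSP2, an ERK phosphatase gene (230.5), and 7.93 kb from SPRY4 (56), and the lost site was in SPRED2 (24.5). SPRY4 and SPRED2 encode inhibitors of RAS signalling. Gained sites were thus at 6.25% of the PI3K-AKT-mTOR and 6.90% of the feedback genes, near the 6.04% of all protein-coding genes. Lost sites were at 3.1% and 3.45%, or 1 gene each, beside 5.64% of all. No JAK-STAT gene of 11 had a site of any class, and in a group of 11 genes 0 is near these shares of all genes.

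Protein kinase C and diacylglycerol kinase genes were hit in both directions. Of 24 genes 6 had a gained and 7 a lost site, beside 6.04% and 5.64% of all protein-coding genes. The group had a median length of 126 kb. Of all protein-coding genes of 50 to 200 kb, 7.58% had a gained and 7.28% a lost site. Of those of 200 kb or more, 24.6% had a gained and 25.8% a lost site. Gained sites were in PRKCE (130), PRKCI (223.5), PRKCQ (96.5 and 62.5), PRKCH (134.5), PRKCB (174) and DGKB (119 and 212). Lost sites were in or near DGKG (78), DGKB (52), PRKCQ (22.5), DGKA (15.5), PRKCB (19) and PRKCA (33.5), among others. PRKCB, PRKCQ and DGKB thus had both. Per Mb the group had 1.499 gained and 1.499 lost sites, against 0.782 and 0.789 over all protein-coding genes.

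Other groups of signalling and adhesion genes are given beside the 6.04% of all protein-coding genes with a gained and the 5.64% with a lost site. Of 50 receptor tyrosine kinase genes outside the ERBB family 7 had a gained site, among them AXL and INSR, the insulin receptor gene, and 8 a lost site, among them DDR1 and ALK, shares above those of all genes in a group with a median length of 84.5 kb. Of 20 receptor tyrosine phosphatase genes, with a median length of 190 kb, 6 (30.0%) had a gained and 7 (35.0%) a lost site. Of 26 cadherin and catenin genes 7 had a gained, 3 a kept and 11 a lost site, at 2.36 gained and 1.91 lost sites per Mb, and 10 of the 26 gained sites in gene bodies were in CDH4. Among 28 immediate early genes, which EGF is known to induce, JUN (score 175) and NR4A1 (444) had gained sites and IER5 (45.5) a lost site, or 7.14% and 3.57%. Of 18 luminal transcription factor genes TFAP2A had a gained and ESR1, the oestrogen receptor gene, a lost site, or 5.56% each. Both of these groups were near the share of all genes. The immediate early genes were short, with a median length of 7.06 kb, and of all genes under 10 kb 2.51% had a gained and 2.04% a lost site. Of 20 genes for the nuclear import and trafficking of ERBB receptors only KPNA4, an importin gene, had a site, a lost one. None of 73 ribosomal protein genes, with a median length of 5.33 kb, had a site.

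The long neuronal adhesion and synapse genes, with a median length of 1198 kb, had more lost than gained sites. Of 50 genes 29 (58.0%) had a lost site, 19 (38.0%) a gained and 2 a kept site. Per Mb they had 1.01 lost and 0.593 gained sites, against 0.898 and 0.777 in all genes of 200 kb or more, of which 25.8% had a lost and 24.6% a gained site. GRM7, AUTS2 and MACROD2, which are on this list, contributed 20 of its lost sites.

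With all peaks of both lists entered, the H3K4me1 mark did not single out a class. The share of sites in SKBR3 H3K4me1 islands was 15.01% ± 0.0647 for gained, 16.7% ± 1.69 for kept and 15.6% ± 0.282 for lost sites (mean ± SD, n = 2 replicates). When the same sites were moved in steps of 10 kb up to 100 kb to either side, the mean share at the 20 moved positions ranged from 13.7 to 15.6% for gained, 11.5 to 19.3% for kept and 14.9 to 16.4% for lost sites. Thus each class at its own position lay within the range of its neighbourhood. With the 1000 highest peaks of each list, islands held 15.6% of gained, 17.1% of kept and 19.8% of lost sites. The moved positions were not computed for those peaks. Islands covered 10.4% and 10.6% of the genome in the replicates and held 15636057 and 15314195 reads. Near start sites more of the sites were in an island of either replicate, 27.6% of gained (20.5 to 35.9%) and 35.5% of lost sites (26.5 to 45.6%) within 1 kb, against 16.2% and 17.9% farther away.

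**Figure D4:**
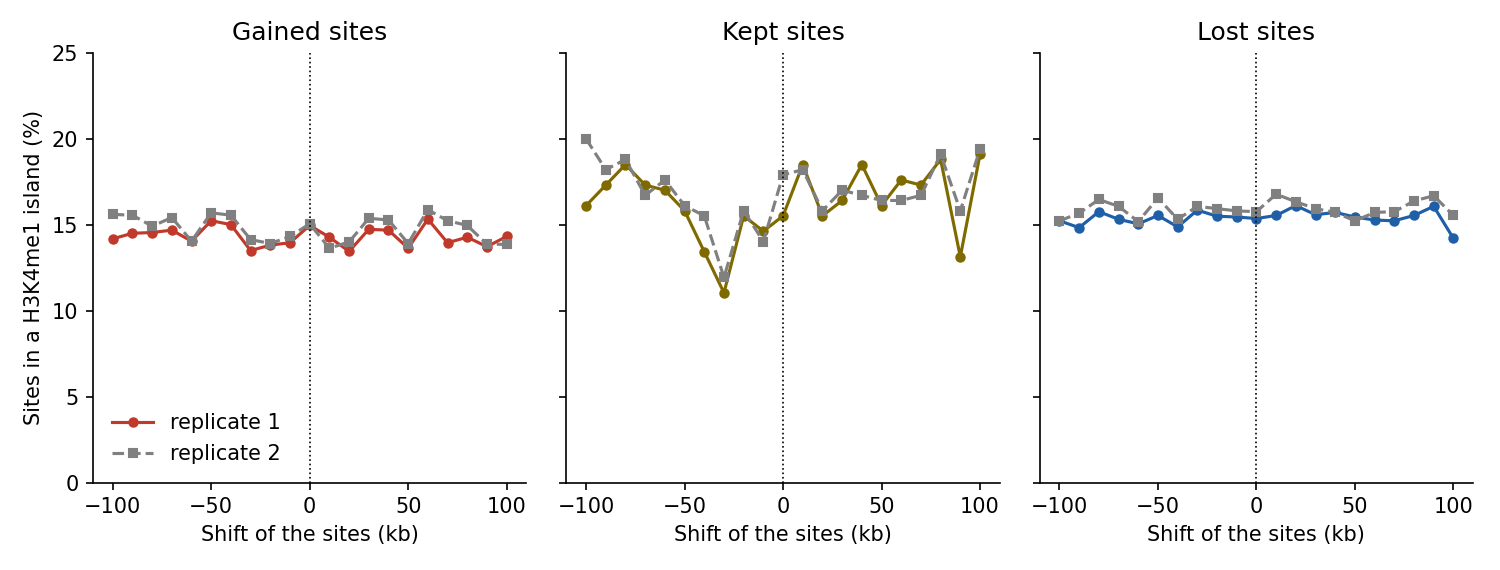
Share of gained, kept and lost HER2 sites (%) that overlap an SKBR3 H3K4me1 island, by shift of the sites in kb, with both replicates drawn. The values at a shift of 0 kb (15.01%, 16.7% and 15.6% on average) do not stand out from those at shifts of 10 to 100 kb.

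The gained sites were mostly sites that BT474 cells also had, and often without EGF. In BT474 cells given EGF 83.3% of gained (81.7 to 84.8%), 94.0% of kept (91.0 to 96.1%) and 35.5% of lost sites (33.5 to 37.5%) were listed. In BT474 cells given vehicle 60.5% of gained sites (58.5 to 62.6%) were listed, and 72.8% of kept and 8.06% of lost sites (7.01 to 9.26%). So 1323 sites that SKBR3 cells showed only with EGF were listed in BT474 cells without it. Sites in neither BT474 list made up 15.8% of gained, 5.67% of kept and 64.4% of lost sites. The BT474 lists held 29326 peaks after EGF and 8559 after vehicle, so shares are compared between classes within a list and not between the lists. Gained sites with the core were listed in BT474 vehicle more often, at 84.6% (79.6 to 88.6%), than gained sites with a purine word alone, at 56.8% (51.5 to 61.9%), or with neither, at 57.6% (55.2 to 60.0%). Lost sites with the core were listed there at 39.7% (28.1 to 52.5%) and those with a purine word alone at 4.63% (3.18 to 6.70%).

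Along the genome gained sites lay nearer to chromosome ends. Within 5 Mb of an end were 340 gained (15.6%, 14.1 to 17.1%), 41 kept (12.2%, 9.15 to 16.2%) and 189 lost sites (8.37%, 7.30 to 9.58%). Without chromosomes 20 and 22 the gained and lost shares were 14.5% and 7.41%, and among sites listed in BT474 after EGF they were 16.4% (14.7 to 18.1%) and 10.4% (8.44 to 12.7%). Gained sites without the core were at the ends at 16.0% and those with it at 12.1%. The median GC content of the surrounding 100 kb was 41.4% for gained and 40.3% for lost sites, and the part of base composition in this difference was not tested.

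Chromosome 20 was densest in both directions, with 134 gained and 158 lost sites, 2.13 and 2.51 per Mb against 0.720 and 0.744 over all chromosomes. Chromosome 7 followed, with 1.395 and 1.92 per Mb. Of the gained and lost sites together, 83.0% were gained on chromosome 22 (39 against 8, interval 69.9 to 91.1%), 67.4% on chromosome 15 (62 against 30, 57.3 to 76.1%) and 67.9% on chromosome 21 (36 against 17, 54.5 to 78.9%), compared with 49.2% overall. On chromosome 3, 37.9% were gained (120 against 197, 32.7 to 43.3%). Reads per kb of H3K4me1 island, relative to all chromosomes, were 1.22 ± 0.00502 on chromosome 20 and 1.98 ± 0.0235 on chromosome 8 (mean ± SD, n = 2), while chromosome 8 had 0.424 gained and 0.376 lost sites per Mb. The DNA copy number of these chromosomes was not measured here and its part in the densities was not tested.

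**Figure D5:**
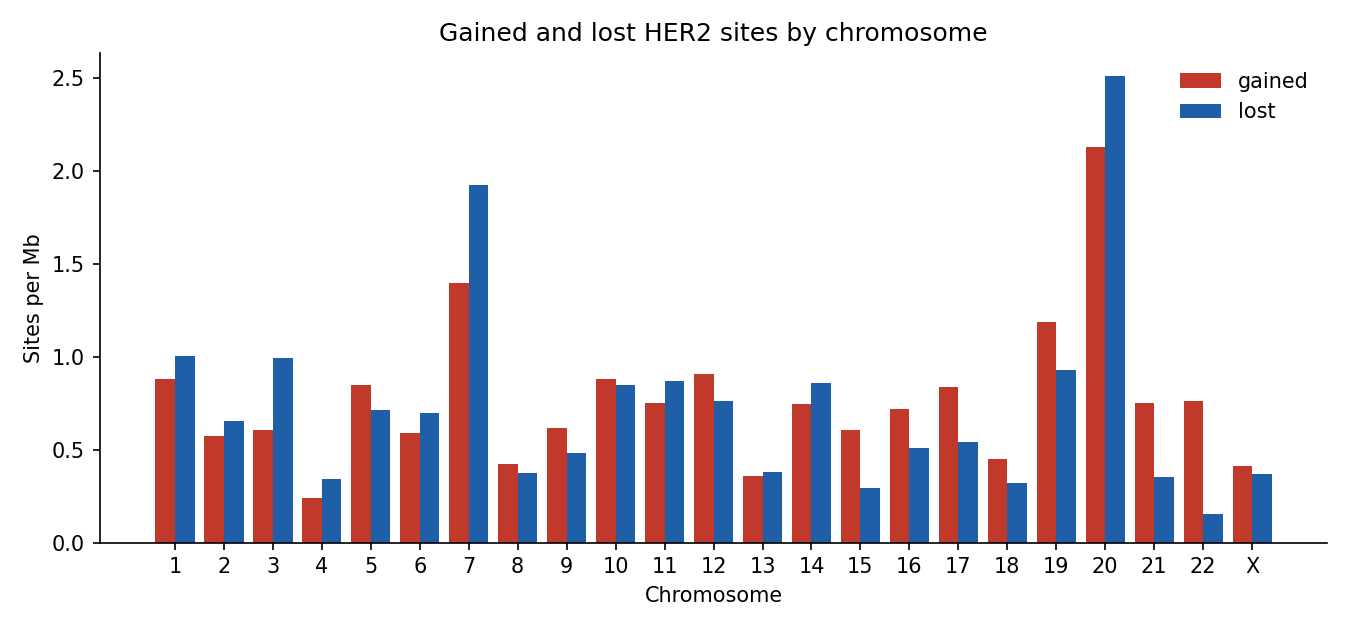
Gained and lost HER2 sites per Mb on each chromosome (bars, from 0). Chromosomes 20 and 7 are densest in both classes, and gained bars exceed lost bars most in proportion on chromosome 22, where there were 39 gained and 8 lost sites.

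Sites had neighbours along the chromosomes both in their own class and in the other list. Another site of the same class lay within 100 kb of 28.8% of lost (27.0 to 30.7%), 24.0% of gained (22.2 to 25.8%) and 7.16% of kept sites, the last being the smallest class. A vehicle peak lay within 100 kb of 27.6% of gained sites (25.8 to 29.5%) and an EGF peak within 100 kb of 28.1% of lost sites (26.3 to 30.0%). The other list was entered whole (2596 vehicle or 2520 EGF peaks), against 2185 gained or 2258 lost sites for the same class. With the 1000 highest peaks of each list the share of gained sites with another gained site within 100 kb was 13.6%. Among bins of 1 Mb, 43 held at least 5 lost sites and 35 at least 5 gained sites. The fullest for lost sites was chr20:54000001-55000000, with 11 lost, 5 gained and 3 kept. On chromosome 14, the bin chr14:88000001-89000000 held 10 lost, 2 gained and 1 kept. The fullest for gained sites were chr20:60000001-61000000, with 9 gained, 3 kept and 3 lost, and chr22:49000001-50000000, with 9 gained and 1 lost.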

How the data were processed

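HER2 peaks (ChIP-exo, SKBR3 and BT474, vehicle or EGF, 1 library each) and SKBR3 H3K4me1 islands (ChIP-seq, 2 replicates) were used, grouped by their labels. The submitters' processing notes name BWA 0.5.9, MACS 1.4.1, SICER 1.1 and GRCh37, whereas the study's methods name bowtie2, MACS2, SICER and hg19, with input DNA as the control and reads in blacklisted or high-input regions removed. HER2 peaks carry a deposited score whose scale is not stated, and it served here only for ranks inside 1 list. H3K4me1 islands carry the authors' unscaled read count, used here for island reads per chromosome. Input samples and BT474 H3K4me1 were not used here.

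Sequence came from GRCh37 and genes from GENCODE 44 on GRCh37 (20163 protein-coding genes, of which a copy on the Y chromosome was counted once with its X partner). The file intervals are 0-based and coordinates are printed 1-based. The midpoint stood in for the summit. Words were sought on both strands within 50 bp of the midpoint, in windows 1 kb to either side and in 28075668 windows of the genome. Islands were compared with sites by an overlap of at least 1 bp. Python 3.11.15, pandas 2.3.3, scipy 1.17.1 (Wilson intervals, level 0.95) and pysam 0.24.0 were used. The 7 measures tested on simulated data recovered every planted site among 2000. No condition had a replicate, so no test compared EGF with vehicle and no p-value is given. HER2 depth is unknown.

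The members, gene lists and motifs were chosen with earlier results of these data known. Some named genes and sequences are not reported here. The other genes named were those at the 5 highest scores of each class, the 5 highest scores within 1 kb of a start site, the 5 genes with most sites and every EGF signalling gene with a site within 10 kb. Named examples from the other gene lists, and the 2 purine words, were chosen after their values were seen. Alternatives tried were the overlap rule, the peaks entered, chromosomes, windows, annotation and replicates.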

Additional observations from a re-analysis of the deposited data

How the results depend on the processing

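Of 172 alternative values, 115 stayed within the 95% interval of the reported share, within 1 SD of the H3K4me1 replicates or within 1.5 times the reported count, and 57 did not. The 115 include 3 values without H3K4me1 replicate 1 and 3 without replicate 2, which lay within 1 SD by construction. Requiring 50% overlap, or allowing a gap of 500 bp, moved 0 of 23 values each. With the 1000 highest peaks of each list, 11.7% of both vehicle and EGF peaks were kept, the core stood at 8.72% of gained and 21.4% of kept sites, BT474 EGF listed 90.1% of gained and 38.6% of lost sites, another site lay within 100 kb of 13.6% of gained and 21.4% of lost sites, islands held 15.6% of gained and 19.8% of lost sites, and 530, 57 and 443 genes had a gained, kept or lost site. Without the 25% of peaks with the lowest scores, BT474 EGF listed 87.6% of gained sites, 19.0% of gained sites had another within 100 kb, 16.3% of lost sites were in islands and 120 genes had a kept site. Without chromosomes 8, 17 and 20, islands held 14.4% of gained and 14.7% of lost sites, BT474 EGF listed 85.0% of gained and 97.5% of kept sites, and 26.7% of lost sites had another within 100 kb. The cause of these shifts was not tested.

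Other definitions also changed values, and for wider or narrower windows this follows by construction. Start sites within 5 kb were at 16.8% of gained, 15.8% of kept and 14.3% of lost sites, and those of every gene type within 1 kb at 9.38% of gained and 6.86% of lost sites. Genes of every type held 61.4%, 62.4% and 62.0%. The core within 25 bp stood at 6.91%, 8.36% and 1.15%, over the whole peak at 14.97%, 22.1% and 6.38%, and around the vehicle midpoint at 9.47% of kept sites. Neighbours within 10 kb were found at 6.04%, 2.09% and 5.31%, and within 1 Mb at 82.6%, 37.3% and 86.4%. BT474 vehicle listed 60.5%, 72.8% and 8.06%. Within 50 kb there were 2328, 391 and 2177 genes. Islands of both replicates held 13.2%, 12.2% and 12.5%, those of either 16.8%, 21.2% and 18.6%, and by midpoint 14.5% of gained and 14.7% of lost sites. Leaving out an H3K4me1 replicate gave 14.97 to 15.06% of gained, 15.5 to 17.9% of kept and 15.4 to 15.8% of lost sites. With 2 replicates each one lies within 1 SD of their mean by construction, so this alternative could not move a value. Under every setting tried for them, the core and the BT474 listings stayed more frequent at gained than at lost sites. No paired analysis was possible because no result comes from a test, and each HER2 condition had 1 library. The unknown HER2 depth limits every class, since a site missing from a list may have been below its threshold.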
